A study of Lemna aequinoctialis with 6 samples.

Results

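Transcripts of phenylpropanoid and lignin synthesis, with dirigent proteins, were examined in Lemna aequinoctialis, a small floating duckweed. They were chosen by words in the gene descriptions of the authors' deposited list of changed transcripts (phenylalanine ammonia-lyase, cinnamoyl, coumaroyl, caffeoyl and feruloyl names, coniferyl, sinapoyl and pinoresinol names, shikimate O-transferases, laccase and dirigent), with flavonoid, chalcone and omega-hydroxypalmitate names left out. The choice gave 63 transcripts of 31 Trinity genes (groups of transcripts that the assembler Trinity joined), out of 5093 transcripts on the list and 81787 in the full table. By role they were 18 entry enzymes, 24 monolignol steps, 12 hydroxycinnamoyl amide transferases, 6 laccases, 2 dirigent proteins and 1 caffeoyl transferase to fatty alcohols. The study measured RNA by sequencing in 3 control samples and 3 samples given indole-3-propionic acid (IPA), which shares its indole ring with the plant hormone auxin, and concerned growth and the yield of metabolites. No strain, genotype, age, dose or duration was given in the sources used here, and the labels name the material only as plant cells of the species. Per the labels the plants were lyophilised and ground, so in these whole-plant samples fewer cells of a type and less RNA per cell cannot be told apart. Whether a group's samples grew as separate cultures is not stated, so the tests weigh differences against the scatter of these samples alone, which can be technical.

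Phenylpropanoid synthesis starts when phenylalanine ammonia-lyase removes the amino group of phenylalanine, and 4-coumarate-CoA ligase later activates the resulting hydroxycinnamic acid. Further enzymes modify the ring and reduce the side chain to give monolignols, the alcohols that laccases and peroxidases oxidise to radicals and couple into lignin, the polymer that stiffens plant walls. Dirigent proteins steer the coupling of such radicals into single stereoisomers, and other branches join the activated acids to amines, to fatty alcohols or, through chalcone synthase, into flavonoids. Duckweeds are soft plants with little lignified tissue.

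Every member was on the list because the authors had called it between these same groups, with an FDR under 0.05 and an absolute log2 fold change of at least 1.00. The differences between IPA and control given here are therefore descriptions of chosen transcripts, and no count of them supports a change. Levels are normalised read counts, that is, reads divided by a factor for each library, and they are not compared between genes because lengths were not used here. A log2 difference is IPA minus control on the log2(value + 0.5) scale, ± SE from limma fitted over all 78722 transcripts kept by a filter on low counts, and it understates the change of low transcripts. All 63 members passed that filter. Each description is the authors' closest named protein, often from another species, so that isoforms of a single Trinity gene can carry different names. Near-identical isoforms can share reads, and which copy differed is uncertain.

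Libraries held 38556985 to 41370062 reads in control and 30149649 to 45233584 in IPA. By the library factors 1 read was worth 0.0205 to 0.0318 normalised reads, which did not follow depth alone. It was worth 0.0318 in control 2 and 0.0229 in control 3, with 38877870 and 41370062 reads. The 20 transcripts with the most reads took 15.9 to 35.2% of reads in control and 7.84 to 10.1% in IPA. The share of a pair of transcripts described as Protein TAR1, a name that ribosomal RNA often receives, was 1.54 to 3.07% in control and 0.590 to 0.862% in IPA. Described markers of green tissue (chlorophyll a-b binding proteins and the RuBisCO small subunit, 47 transcripts) were present in every library, with summed levels of 1515 to 2306 in control and 6178 to 8545 in IPA. The TAR1 pair and the green markers were taken from the authors' list, so a difference between the groups was part of their choice. The part of these shifts in the results was not tested.

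Most members were lower in IPA. In all, 49 of 63 had a lower mean in IPA and 14 a higher one, and the share that was lower on the authors' deposited list was 77.8% of the members against 49.2% of all 5093. All 3 IPA libraries lay below all 3 control libraries in 48 members (16.3% of all transcripts tested), above them in 12 (16.6%), and the groups overlapped in 3. At limma's FDR of 0.05, 38 members were called lower (3.87% of all transcripts tested) and 6 higher (4.49%), and 19 were not called. The median log2 difference was -1.17 over the members and 0.02 over all transcripts tested. Calls in either direction covered 6587 of all 78722 transcripts tested (8.37%). Leaving out control 1 gave 19 lower members, while calls over all transcripts came to 7225 of 80273. Leaving out control 2 gave 7 lower and 3 higher members, with 1.95% of all transcripts called. Leaving out IPA 2 gave 8 and 2, with 1278 of 80071 transcripts called, and leaving out IPA 3 gave 12 and 3, with 3.13% called. The direction of each member was the same without any 1 of the 6 libraries and under the other scalings and tests tried. In the 48 and 12 members without overlap, leaving out 1 library could not have changed it.

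**Figure D1:**
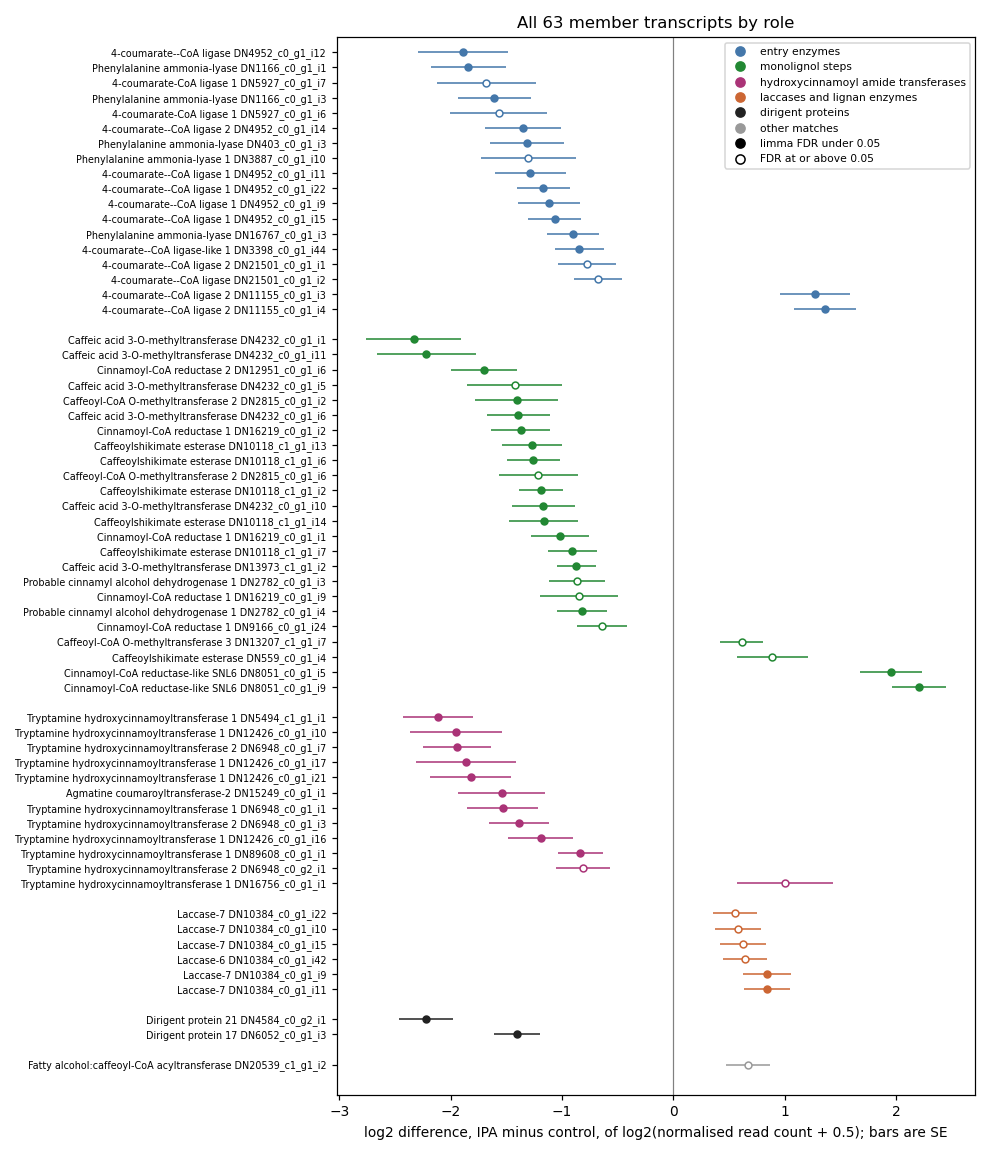
Log2 difference of IPA minus control (± SE, horizontal axis) for each of the 63 members, grouped by role and labelled with the description and Trinity name; filled points had a limma FDR under 0.05. The 6 laccase transcripts lie to the right of 0 and both dirigent proteins to the left, while the entry enzymes and monolignol steps hold transcripts on both sides.

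Phenylalanine ammonia-lyase, the entry enzyme of the pathway, was lower in IPA in all 5 of its listed transcripts, from 4 Trinity genes. The transcript TRINITY_DN1166_c0_g1_i3 stood at 177, 162 and 100.5 in control 1, 2 and 3 and at 66.3, 54.3 and 27.8 in IPA 1, 2 and 3 (log2 difference -1.61 ± 0.33, n = 3 per group). Its isoform TRINITY_DN1166_c0_g1_i1 stood at 119.8, 98.6 and 59.1 in control and at 33.7, 28.7 and 15.1 in IPA (log2 difference -1.84 ± 0.33). In both isoforms the groups did not overlap, control 3 was the lowest control and IPA 3 the lowest IPA library. A second Trinity gene of the enzyme, TRINITY_DN403_c0_g1_i3, showed the same layout with 30.3, 21.3 and 11.9 in control and 10.05, 8.19 and 5.44 in IPA (log2 difference -1.31 ± 0.33). Phenylalanine ammonia-lyase 1, TRINITY_DN3887_c0_g1_i10, stood at 88.1, 99.1 and 45.95 in control and at 46.5, 36.6 and 15.2 in IPA (log2 difference -1.30 ± 0.43). Here the groups overlapped, since IPA 1 lay slightly above control 3, and limma did not call it.

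4-coumarate-CoA ligase, which makes the CoA esters from which the later branches start, split between genes. Of its 13 listed transcripts, counting 1 of a ligase-like protein, 11 were lower and 2 higher in IPA. The transcript TRINITY_DN5927_c0_g1_i6, described as 4-coumarate-CoA ligase 1, stood at 406.5, 245 and 139 in control and at 117, 97.4 and 46.2 in IPA (log2 difference -1.57 ± 0.44). Its isoform TRINITY_DN5927_c0_g1_i7 stood at 369.5, 199 and 109.5 in control and at 83.9, 75.1 and 38.2 in IPA (log2 difference -1.68 ± 0.44). Control 1 was the highest library in both isoforms, the groups did not overlap, and limma called neither isoform but did call their sum (log2 difference -1.62 ± 0.42).

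In the Trinity gene TRINITY_DN4952_c0_g1, 6 of 7 isoforms were members, under 3 different ligase names, and all 6 were lower in IPA. The isoform TRINITY_DN4952_c0_g1_i12 differed most, with 18.7, 11.4 and 5.01 in control and 3.39, 2.05 and 2.00 in IPA (log2 difference -1.89 ± 0.41). The other 5 had log2 differences of -1.35 to -1.07. The low gene TRINITY_DN21501_c0_g1 held a further pair of lower isoforms, each at 0 in IPA 3.

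The opposite direction appeared in TRINITY_DN11155_c0_g1, described as 4-coumarate--CoA ligase 2, both of whose isoforms were members. The isoform TRINITY_DN11155_c0_g1_i4 stood at 1.99, 4.80 and 4.30 in control and at 8.10, 10.4 and 10.95 in IPA (log2 difference 1.36 ± 0.28). The isoform TRINITY_DN11155_c0_g1_i3 stood at 1.09, 3.47 and 2.81 in control and at 5.31, 6.41 and 6.82 in IPA (log2 difference 1.27 ± 0.31). Control 1, the highest control in most lower members, was here the lowest of the 6 libraries. The description 4-coumarate--CoA ligase 2 was thus given to transcripts of 3 Trinity genes, of which 1 was higher and 2 were lower. Over all 18 entry enzyme transcripts the median log2 difference was -1.23, with 16 lower and 2 higher.

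**Figure D2:**
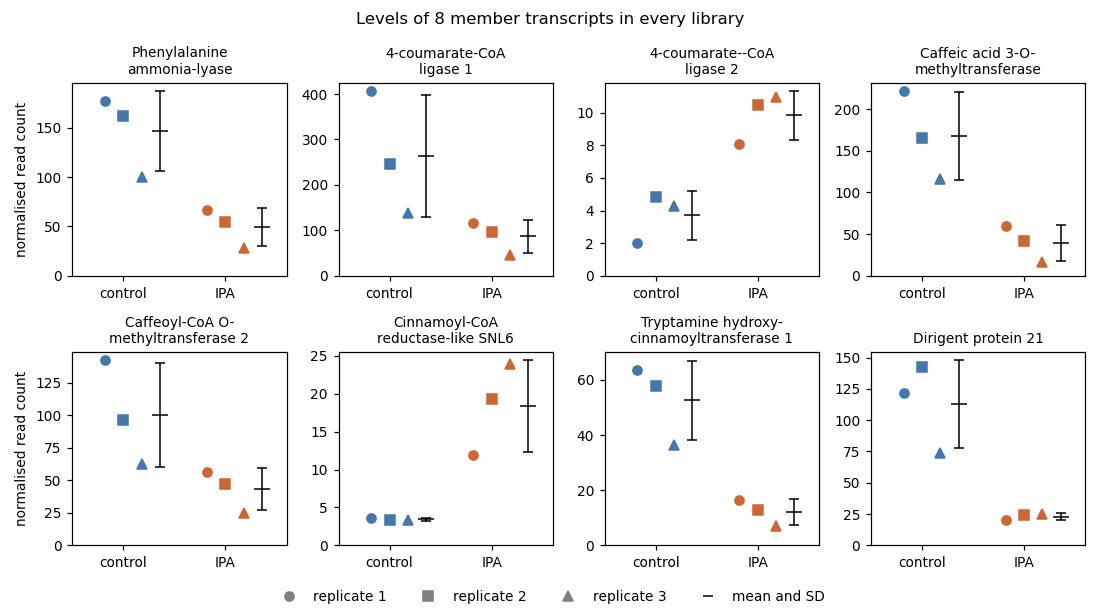
Normalised read count (vertical axis, from 0) of 8 members in each control and IPA library; marker shapes give the replicate number, and the black mark and bar give the mean and SD of 3 libraries. The groups do not overlap in any of the 8; 4-coumarate--CoA ligase 2 and the cinnamoyl-CoA reductase-like SNL6 are higher in IPA and the other 6 lower.

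Among the monolignol steps, caffeic acid 3-O-methyltransferase, which methylates the ring of lignin precursors, was lower in all 6 of its listed transcripts. The transcript TRINITY_DN4232_c0_g1_i11 stood at 221, 165 and 116 in control and at 59.75, 42.1 and 16.0 in IPA (log2 difference -2.22 ± 0.45). The transcript TRINITY_DN4232_c0_g1_i1 stood at 207, 139.8 and 98.95 in control and at 44.6, 34.8 and 13.7 in IPA (log2 difference -2.33 ± 0.43), the most negative value among all members on this scale. Another isoform, TRINITY_DN4232_c0_g1_i5, stood at 33.25, 37.2 and 24.6 in control and at 19.6, 14.5 and 4.99 in IPA (log2 difference -1.42 ± 0.43). The groups did not overlap in any of these isoforms, and IPA 3 was the lowest library in each, so that the highest IPA value was 3.25 to 3.92 times the lowest. The low transcript TRINITY_DN13973_c1_g1_i2 of this enzyme stood at 0.513, 0.445 and 0.366 in control and at 0, 0.0409 and 0 in IPA. Its log2 difference was -0.87 ± 0.18. By the authors' deposited table its log2 fold change was -4.53, the most negative among all members.

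Caffeoyl-CoA O-methyltransferase, the parallel methylating enzyme that acts on the CoA ester, was lower in 2 transcripts and higher in 1. The transcript TRINITY_DN2815_c0_g1_i6 stood at 142, 95.96 and 62.4 in control and at 56.5, 47.5 and 25.1 in IPA (log2 difference -1.21 ± 0.35). The transcript TRINITY_DN2815_c0_g1_i2 stood at 77.5, 57.6 and 35.7 in control and at 29.5, 23.99 and 11.5 in IPA (log2 difference -1.41 ± 0.37). IPA 1 came close to control 3 in both, without overlap. The higher transcript, Caffeoyl-CoA O-methyltransferase 3, stayed under 1 normalised read in every library, with means of 0.3455 ± 0.119 in control and 0.787 ± 0.0632 in IPA (SD, n = 3). It took 7.80 ± 3.65% of its gene's level in control (SD, n = 3). The sum over the gene's 6 isoforms overlapped between the groups and was not called (log2 difference 0.19 ± 0.20).

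Cinnamoyl-CoA reductase, which carries out the first reduction on the way to monolignols, gave 5 lower and 2 higher transcripts. Cinnamoyl-CoA reductase 2 stood at 7.88, 10.3 and 3.91 in control and at 1.67, 1.86 and 1.78 in IPA (log2 difference -1.70 ± 0.29), so that the IPA libraries lay close together. The 4 lower transcripts described as Cinnamoyl-CoA reductase 1 were low, with control means of 0.727 to 1.025 and IPA means of 0.06565 to 0.272. The 2 higher transcripts are described as Cinnamoyl-CoA reductase-like SNL6, a rice protein linked to disease resistance.

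The SNL6 transcript TRINITY_DN8051_c0_g1_i9 stood at 3.65, 3.31 and 3.36 in control and at 12.0, 19.3 and 23.9 in IPA (log2 difference 2.21 ± 0.24), the most positive value among all members. Its isoform TRINITY_DN8051_c0_g1_i5 stood at 3.62, 2.67 and 2.699 in control and at 8.45, 13.1 and 19.55 in IPA (log2 difference 1.95 ± 0.28). The control libraries lay close together and the IPA libraries spread, with IPA 3 highest. The other 3 isoforms of the gene were also on the authors' list and higher in IPA, but under the name NADPH HC-toxin reductase 1, a maize enzyme that inactivates a fungal toxin, so the word match did not take them.

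Caffeoylshikimate esterase, which releases caffeic acid from its shikimate ester, differed in direction between its 2 Trinity genes. All 5 listed transcripts of TRINITY_DN10118_c1_g1 were lower in IPA, with control means of 0.872 to 1.20 and IPA means of 0.0547 to 0.285. The transcript TRINITY_DN559_c0_g1_i4 stood at 11.1, 15.7 and 10.6 in control and at 32.1, 29.3 and 13.1 in IPA (log2 difference 0.89 ± 0.32). IPA 3 lay below control 2, so the groups overlapped, and limma did not call it. Its other 4 isoforms, none on the list, had higher means in IPA as well, with log2 differences of 0.39 to 0.69, and IPA 3 within the range of control in every one.

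Probable cinnamyl alcohol dehydrogenase 1, of a family that makes the final reduction to monolignols, was lower in both listed transcripts (log2 differences -0.86 ± 0.25 and -0.82 ± 0.22). Over all 24 monolignol transcripts the median log2 difference was -1.17, with 20 lower and 4 higher. On this scale the value depended on the constant added to low values, being -1.62 with edgeR on whole reads.

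Hydroxycinnamoyl amide transferases join activated hydroxycinnamic acids to amines, and in other plants their products accumulate in defence and are linked into walls. Of the 12 listed transcripts, 11 were lower in IPA. Tryptamine hydroxycinnamoyltransferase 1, described in rice as using tryptamine, an indole amine, was lower in 7 of 8 transcripts. The transcript TRINITY_DN5494_c1_g1_i1 stood at 63.7, 57.8 and 36.3 in control and at 16.5, 12.8 and 6.99 in IPA (log2 difference -2.11 ± 0.31). The transcript TRINITY_DN12426_c0_g1_i17 stood at 13.8, 21.6 and 10.9 in control and at 6.89, 4.52 and 1.51 in IPA (log2 difference -1.86 ± 0.45), and its isoform TRINITY_DN12426_c0_g1_i10 at 9.14, 13.1 and 6.68 and at 3.79, 2.40 and 0.816 (log2 difference -1.95 ± 0.41). IPA 1 held the highest and IPA 3 the lowest IPA value in each of the 3, and the groups did not overlap.

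The transcript TRINITY_DN6948_c0_g1_i1 stood at 14.1, 16.4 and 11.3 in control and at 7.90, 4.05 and 2.64 in IPA (log2 difference -1.53 ± 0.32). Agmatine coumaroyltransferase-2, which uses the amine agmatine, stood at 16.7, 25.3 and 14.1 in control and at 9.22, 7.76 and 2.79 in IPA (log2 difference -1.54 ± 0.39). The groups did not overlap in either. The exception, TRINITY_DN16756_c0_g1_i1, stood at 1.27, 1.30 and 0.6405 in control and at 1.06, 2.66 and 5.41 in IPA (log2 difference 1.002 ± 0.43). There IPA 1 lay within the range of control, IPA 3 was the highest library, and limma did not call the transcript.

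All 6 laccase transcripts, members of a family of copper enzymes that oxidise monolignols, were higher in IPA and belonged to a single Trinity gene, TRINITY_DN10384_c0_g1. They rested on 2 to 14 reads in control libraries and 13 to 48 in IPA libraries. The Laccase-7 transcript TRINITY_DN10384_c0_g1_i11 stood at 0.0604, 0.127 and 0.137 in control and at 0.862, 0.409 and 0.544 in IPA (log2 difference 0.84 ± 0.21). The Laccase-7 transcript TRINITY_DN10384_c0_g1_i9 stood at 0.241, 0.0636 and 0.229 in control and at 0.632, 0.983 and 0.544 in IPA (log2 difference 0.84 ± 0.21). The groups did not overlap in any of the 6, and limma called these 2.

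The remaining Laccase-7 transcripts, TRINITY_DN10384_c0_g1_i15, TRINITY_DN10384_c0_g1_i10 and TRINITY_DN10384_c0_g1_i22, had log2 differences of 0.62, 0.58 and 0.56, and Laccase-6, TRINITY_DN10384_c0_g1_i42, had 0.64. Summed over all 14 isoforms, of which 8 were not members and all 8 had higher means in IPA, the gene stood at 2.35, 3.63 and 4.16 in control and at 8.19, 9.70 and 7.04 in IPA (log2 difference 1.20 ± 0.24). The sum did not overlap between the groups. Members described with pinoresinol or other lignan names numbered 0.

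The dirigent proteins differed from each other once all isoforms were counted. Dirigent protein 21, TRINITY_DN4584_c0_g2_i1, stood at 121, 143 and 73.9 in control and at 20.1, 24.03 and 24.9 in IPA. The gene's only other isoform, listed as Pterocarpan synthase 1 (an enzyme of the dirigent family), stood at 151, 180 and 84.5 and at 26.7, 28.2 and 22.6. Their log2 differences were -2.22 ± 0.24 and -2.34 ± 0.26, and the IPA libraries lay close together. Dirigent protein 17, TRINITY_DN6052_c0_g1_i3, stood at 44.1, 41.6 and 27.9 in control and at 14.2, 14.9 and 12.4 in IPA. The other 2 isoforms of its gene were not on the list. TRINITY_DN6052_c0_g1_i2 stood at 69.95, 53.15 and 41.6 in control and at 49.75, 62.99 and 99.4 in IPA. TRINITY_DN6052_c0_g1_i6 stood at 74.9, 49.7 and 37.15 and at 42.7, 50.01 and 78.1. Both overlapped between the groups, so the listed isoform's share of the gene's level was 26.1 ± 2.73% in control and 10.47 ± 3.53% in IPA (SD, n = 3). The summed level was 147 ± 41.2 in control and 141 ± 43.2 in IPA.

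Fatty alcohol:caffeoyl-CoA acyltransferase, which in Arabidopsis makes caffeates of root waxes, was low, at 0.483, 0.509 and 0.572 in control and 0.977, 1.35 and 1.06 in IPA (log2 difference 0.67 ± 0.20). Its groups did not overlap, and limma did not call it.

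Taking every isoform of the 31 Trinity genes widened the set to 154 transcripts. The 91 that were not members comprised 81 absent from the authors' list and 10 listed under other names. In genes whose members were lower, 66 of the 70 others had lower means in IPA too, and in genes whose members were higher, 18 of 21 had higher means. Over all 78722 transcripts tested, 38626 had lower means in IPA and 40096 higher. Of the 87 others that were tested, limma called 6 lower and 3 higher, against 3.87% and 4.49% of all transcripts tested. The 10 listed under other names were chosen on this same contrast, and the rest can share reads with members so chosen. Summed over isoforms, 24 genes were lower and 7 higher in IPA, and limma called 14 lower (4.68% of all 27203 Trinity genes tested) and 3 higher (5.65%). All IPA libraries lay below all control libraries in 20 sums (16.0% of all genes tested) and above them in 4 (18.8%). Some genes rested on a minor isoform. The member of TRINITY_DN3398_c0_g1, a ligase-like gene of 27 isoforms, took 2.22 ± 0.311% of the gene's level in control (SD, n = 3). In TRINITY_DN16767_c0_g1, a phenylalanine ammonia-lyase, the member took 5.14 ± 0.237% (SD, n = 3) of the gene's level in control, and its unlisted isoform stood at 179, 161.6 and 90.99 in control and at 100.3, 100.02 and 63.7 in IPA, with overlapping groups. In TRINITY_DN2815_c0_g1, the caffeoyl-CoA O-methyltransferase, the sum overlapped as well, at 475 ± 123 in control and 243 ± 106 in IPA.

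**Figure D3:**
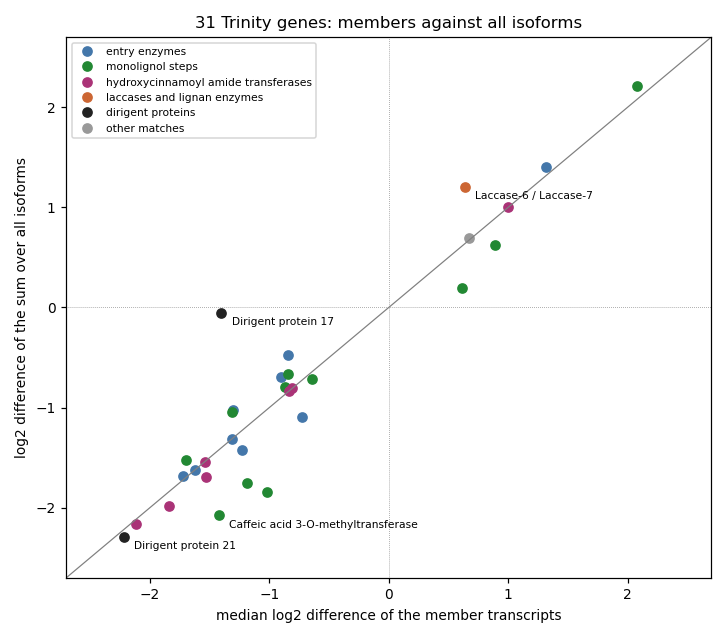
For each of the 31 Trinity genes, the median log2 difference of its member transcripts (horizontal axis) against the log2 difference of the sum over all its isoforms (vertical axis), coloured by role, with the line of equality. Dirigent protein 17 stands off the line, with -1.40 for its member and -0.06 for the sum.

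The members nearest the limits of the authors' list show how the choice was made. By the authors' deposited table, TRINITY_DN559_c0_g1_i4 had a log2 fold change of 1.001 and TRINITY_DN16767_c0_g1_i3 of -1.02, and TRINITY_DN10384_c0_g1_i10 had an FDR of 0.0476 and TRINITY_DN16756_c0_g1_i1 of 0.0439. By limma's coefficient the first pair had 0.89 and -0.90, and just outside the list their unlisted isoforms TRINITY_DN559_c0_g1_i16 and TRINITY_DN16767_c0_g1_i1 had 0.69 and -0.68.

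The libraries of a group also differed in a shared way across the lower members. Control 3 was the lowest control library in 43 of the 49 lower members (87.8%), against 76.3% of the other lower transcripts on the authors' list. IPA 3 was the lowest IPA library in 37 (75.5%, against 44.5%) and IPA 1 the highest in 36 (73.5%, against 40.7%). By role, IPA 3 was lowest in 15 of 16 lower entry enzymes, 10 of 11 lower amide transferases and 11 of 20 lower monolignol steps. Of the 48 members with all IPA libraries below control, 20 (41.7%) ran from IPA 3 through IPA 2, IPA 1, control 3 and control 2 up to control 1, an order held by 11.2% of the 12802 such transcripts in the whole table. Counted over Trinity genes, 9 of 20 sums had it, against 11.6% of 4366. The share of this order within the authors' list was not counted. Control 1 was the highest control in 75.1% of the list's other lower transcripts, against 50.9% of all lower transcripts tested. Parts of the order were thus commoner on the list as a whole. Transcripts of a gene can share reads and are not independent, and no test was made.

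Within IPA the median ratio of the highest to the lowest library was 2.22 for lower entry enzymes, 3.01 for lower amide transferases, 2.25 for lower monolignol steps and 1.22 for the dirigent proteins, against 1.49 in the other lower transcripts of the list. Relative to the control mean of each transcript, the median of the lower amide transferases was -1.05, -1.61 and -2.41 on the log2 scale in IPA 1, 2 and 3. For the dirigent proteins it was -1.88, -1.72 and -1.83.

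**Figure D4:**
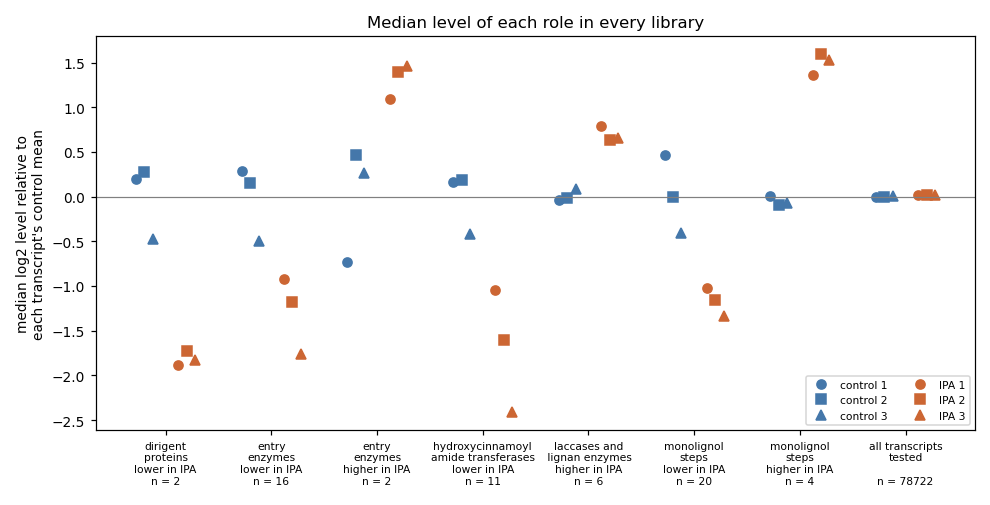
Median log2 level of each role's lower or higher members in each library, relative to each transcript's control mean (vertical axis), with colour for the group, shape for the replicate and n transcripts below. IPA 3 lies lowest for lower entry enzymes, amide transferases and monolignol steps, while the medians of all 78722 transcripts tested lie close to 0 in every library.

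Other described genes of the pathway, all from the authors' list and so chosen on these samples, were counted from word lists. Among the 5030 transcripts of that list other than the members, limma called 1547 lower and 1894 higher, against 3.87% and 4.49% of all transcripts tested. Of 10 transcripts of the shikimate route and phenylalanine supply, from 5 Trinity genes, limma called 5 lower and 1 higher. Of 52 transcripts of class III peroxidases, enzymes that can oxidise monolignols, from 25 Trinity genes, 30 were called lower and 10 higher. Of 22 flavonoid transcripts, from 7 Trinity genes, 10 were called lower and 9 higher. Dihydroflavonol 4-reductase, mostly isoforms of TRINITY_DN9437_c0_g1, gave 8 of these lower calls. CASP-like proteins, whose family includes those that mark where lignin is laid down in Casparian strips, had 18 transcripts from 6 genes. Of these 11 were called lower and 5 higher. Of 9 transcripts of MYB regulators, also from 6 genes, 4 were called lower and 3 higher. No described transcript matched the list of phenolic glucosyltransferases. Values of genes from these lists, named after they were seen, follow.

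Bifunctional chorismate mutase/prephenate dehydratase, on the route to phenylalanine, stood at 28.9, 20.9 and 11.6 in control and at 6.15, 5.10 and 3.73 in IPA in the transcript TRINITY_DN1527_c0_g1_i3 (log2 difference -1.86 ± 0.31). MYB4, known in Arabidopsis as a repressor of phenylpropanoid genes, was lower in 4 of 5 transcripts. Its transcript TRINITY_DN3931_c2_g1_i3 stood at 60.8, 40.97 and 27.8 in control and at 10.6, 10.1 and 8.48 in IPA (log2 difference -2.03 ± 0.26), while TRINITY_DN3931_c1_g1_i4 stood at 5.43, 7.60 and 4.14 and at 9.22, 12.9 and 22.8 (log2 difference 1.25 ± 0.32). The groups did not overlap in any of these. Of the other regulators counted, MYB20 was called higher in 2 of 3 transcripts, with log2 differences of -1.45 to 1.25. The single MYB46 transcript was not called (log2 difference 0.49).

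Ring hydroxylases of the pathway that are described only by a cytochrome P450 number escaped the word match. A search of the authors' list by number found the 2 that follow. No member was described as a cinnamate hydroxylase or a shikimate O-transferase, or by a feruloyl, coniferyl or sinapoyl name. Cytochrome P450 84A1, known in Arabidopsis as ferulate 5-hydroxylase, stood at 75.5, 79.55 and 41.4 in control and at 27.6, 19.45 and 8.87 in IPA (log2 difference -1.87 ± 0.40). Cytochrome P450 98A2, of the family that hydroxylates coumaroyl esters, stood at 1.54, 2.23 and 1.97 in control and at 8.73, 5.38 and 3.46 in IPA (log2 difference 1.32 ± 0.29). Neither overlapped between the groups, and they lay in opposite directions.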

How the data were processed

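RNA of ground, lyophilised plants was sequenced in 3 control and 3 IPA samples, with a stranded mRNA kit and paired ends per the labels' protocols. The groups and replicate numbers come from the titles. The authors deposited a full table whose unit is a normalised signal (reads divided by a library factor), and a list of changed transcripts whose columns are, per the file headers, a fold change and mean CPM (both log2), the likelihood-ratio statistic (a score), its p-value and the FDR. FastQC, Trimmomatic, BWA, featureCounts and edgeR are named per the submitters' processing notes, while versions, roles, settings and build are not given in the sources used here. Each value was a whole multiple of what 1 read was worth (100% within 0.01 reads), so whole reads were recovered, and the library values repeated in the list matched those reads in all 30558 cases. Columns of other samples numbered 0.

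The filter on low counts was edgeR 4.0.16's filterByExpr (minimum count 10, minimum total 15) on the recovered reads, which left out 3065 of 81787. The others were tested as log2(value + 0.5) with limma 3.58.1 in R 4.3.3, with trend and robust estimation, for the difference of IPA from control, with a Benjamini-Hochberg threshold of 0.05. By limma 6587 transcripts were called, and by the quasi-likelihood test of edgeR on the recovered reads 6393. The limma step was also run on simulated counts with the same mix of transcripts in both groups apart from planted changes. That mix differed between the real groups, so the outcome is not used as support here. Alternatives were other pseudocounts, no filter, other scalings, DESeq2 1.42.0, a replicate block, sums over isoforms and leaving out each library.

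Members, roles and word lists were chosen with earlier results of these data known. Named were all members of a role with at most 6 transcripts; of larger roles the 6 with the most reads, the 2 largest rises and the 2 largest falls; and those nearest the list's limits. Other genes and transcripts were named after their values were seen. The role match missed the spelling 4-coumarate-CoA ligase, so these transcripts were moved to the entry enzymes after the data were seen, and the amide transferases were set apart from the other matches. The word list for wall regulators also caught 6 unrelated names, which were left out. No sequences were used here.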

Additional observations from a re-analysis of the deposited data

How the results depend on the processing

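All 63 members kept their direction in each transcript-level alternative. For members whose groups did not overlap, leaving out 1 library could not have changed it. The count called lower was 38, and 7 to 44 when 1 library was left out; the count called higher was 6, and 2 to 7. Scaling by library totals moved the median of all transcripts from 0.02 to 0.25 on the log2 scale and the share of calls that were higher from 53.7 to 84.1%. It called 13 members higher and 37 lower, with 11817 of all transcripts called, and the medians were -0.90 for monolignol steps, 0.77 for laccases and -1.51 for dirigent proteins. Counted over summed isoforms, 14 of 31 genes were called lower and 3 higher, with medians of -0.79, 1.20 and -1.17. With pseudocounts of 0.1 and 1 the median was -1.47 and -0.80 for monolignol steps and 1.15 and 0.41 for laccases. The count tests gave -1.62 (edgeR) and -1.65 (DESeq2) for monolignol steps and 1.53 and 1.52 for laccases, calling 32 and 46 members lower and 6 and 8 higher, with 8.12 and 13.2% of all transcripts called against 8.37% by limma. Without 1 library the medians ran from -1.25 to -0.87 for monolignol steps, -1.40 to -0.90 for entry enzymes, 0.61 to 0.70 for laccases and -2.05 to -1.67 for dirigent proteins. Without the respelled ligase the entry median was -1.14. The titles give both groups the same replicate numbers. Same-numbered samples deviated from their group means with correlations of -0.09, 0.08 and -0.13, and differently numbered ones with -0.09 to 0.13. With 3 libraries per group, this cannot show whether same-numbered samples were handled together. With the replicate block 37 members were called lower and 4 higher, and 5.56% of all transcripts. The cause of these moves was not tested. Depth limits the 25 members with under 100 reads in every library, the laccases among them.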

Other observations

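Among genes outside the members, some that were higher in IPA shared the library order of the 4-coumarate--CoA ligase 2 gene that was higher in IPA. That order ran from control 1 through control 3, control 2, IPA 1 and IPA 2 to IPA 3. It was held by 1000 of the 13073 transcripts with all IPA libraries above all control libraries, or 1.27% of all 78722 tested. The chalcone synthase transcript TRINITY_DN5476_c0_g1_i3, the first enzyme of the flavonoid branch, which uses the product of the ligase, stood at 10.2, 26.4 and 26.1 in control 1, 2 and 3 and at 53.9, 77.1 and 79.9 in IPA 1, 2 and 3. Phospho-2-dehydro-3-deoxyheptonate aldolase 1 (TRINITY_DN9643_c0_g1_i1), which opens the shikimate route, stood at 82.8, 157 and 152 in control and at 218, 283 and 293 in IPA. Flavonoid 3'-monooxygenase CYP75B137 (TRINITY_DN13522_c0_g1_i20), a later flavonoid enzyme, stood at 0, 0.254 and 0.183 in control and at 1.69, 3.09 and 3.90 in IPA. Control 1 was the lowest library in all 3, and the groups did not overlap. The same order was held by 16 of the 47 green tissue markers, which were also taken from the authors' list. A second chalcone synthase isoform, TRINITY_DN5476_c0_g1_i4, differed only in that IPA 2 exceeded IPA 3 (96.4 and 93.3). These transcripts were picked after their values were seen, and no test was made.

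Dihydroflavonol 4-reductase, a flavonoid enzyme related in sequence to cinnamoyl-CoA reductase, was called lower in 8 of 13 described transcripts and higher in 2. These came from 2 Trinity genes. Apart from TRINITY_DN9166_c0_g1_i6, all were isoforms of TRINITY_DN9437_c0_g1 and went both ways. All were from the authors' list, of whose 5030 transcripts other than members 1547 were called lower and 1894 higher, against 3.87% and 4.49% of all transcripts tested. In the Trinity gene TRINITY_DN9166_c0_g1, of 15 isoforms, 1 was listed as Cinnamoyl-CoA reductase 1 and another as Dihydroflavonol 4-reductase, so the names do not settle which enzyme the gene encodes. The gene's sum stood at 14.3, 9.41 and 7.66 in control and at 5.86, 5.79 and 6.20 in IPA.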
